A study of Mus musculus with 22 samples.

Results

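RNA precipitated with an antibody to NF90 and NF110 was compared with input RNA from the same wild-type mouse embryonic stem cells. The genes described are those with an FPKM, fragments scaled for transcript length and library size, of at least 1 in 3 or more of these 6 libraries, which left 12109 of the 22330 genes in the deposited table. Of these, 11340 reached the minimum in all 6 libraries, 10 reached it in the 3 precipitates and no input, and 88 reached it in the 3 inputs and no precipitate. A further 4370 genes of the table were listed at 0 in all 6.

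NF90 and NF110 are related RNA-binding proteins. Both carry double-stranded RNA binding domains, and both form dimers with NF45, the product of Ilf2. They are known for binding structured RNA, including AU-rich stretches of mRNA 3′ ends and the hairpins of primary microRNA transcripts. In RNA immunoprecipitation followed by sequencing (RIP-seq), RNA that stays with the antibody-bound beads through the washes is sequenced beside RNA of the starting material, so that each gene has a share of the reads in either library.

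The groups used here were embryonic stem cells labelled NF90/NF110 WT (3 IP and 3 input libraries), NF110 KO (3 and 3) and NF90+NF110 KO (3 and 3). All were grown with serum, LIF and the inhibitors PD0325901 and CHIR99021. The labels do not say how many clones each knockout line stands for. Each IP was paired with an input of the same experiment, and the experiments were biological triplicates. Every IP, including those from NF90+NF110 KO cells, was made with the same anti-NF90/NF110 antibody, and the NF90+NF110 KO precipitates come from cells that lack both targets by genotype. The protocol describes an NP40 lysate cleared by centrifugation, and it does not say whether the sequenced input RNA was taken from that cleared lysate or from whole cells.

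The WT libraries held 14.4 to 17.4 M reads assigned to genes in the IPs and 10.8 to 11.9 M in the inputs, so depth moved with the comparison. The 45S pre-ribosomal RNA (Rn45s) was at 2270.1, 2421 and 2790.3 FPKM in the IPs, against 1383, 1423 and 1651 FPKM in the inputs, although the libraries had been depleted of ribosomal RNA. All 20 listed embryonic stem cell markers passed the minimum, with a summed level of 5550.2 to 6068 FPKM in the IPs and 4965 to 5379 FPKM in the inputs. Of 12 fibroblast or feeder markers 4 passed, their summed level was 8.92 to 10.2 FPKM in the IPs and 6.81 to 9.26 FPKM in the inputs, and Postn and S100a4 were listed at 0. The part of depth, of ribosomal RNA and of other cell types in the results was not tested.

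The mRNA of the dimer partner NF45, Ilf2, was modestly higher in the precipitate. It was at 86.0, 86.0 and 87.6 FPKM in the WT IPs, against 70.4, 76.6 and 83.6 FPKM in the WT inputs, and the groups did not overlap. The log2 fold change was 0.17 ± 0.05 (SE; limma on log2(FPKM + 1), adjusted p = 0.010). Protein was not measured in these files.

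Differences between precipitate and input were numerous and mostly small. At an adjusted p under 0.05, 3669 genes (30.3%) were higher in WT IP than in WT input and 2954 (24.4%) were lower. The central 90 of every 100 genes had log2 fold changes between -0.57 and 0.51, with a median of 0.02. Only 58 genes (0.479%) were both called and at least 2-fold higher, and 67 (0.553%) were called and at least 2-fold lower. The 3 IPs did not overlap the 3 inputs in 5018 genes (41.4%), 2634 with the IPs higher and 2384 with the IPs lower. Over all 12109 genes, 4815 were higher in the IP in all 3 pairs and 4029 were lower in all 3. Without the term for the pair, 1852 genes were called higher and 1646 lower. In the authors' deposited table, 1858 of the same genes are higher and 1655 are lower in WT IP at an adjusted p under 0.05, of which 1858 and 1643 carried the same call here.

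Genes were ranked among those called, with a mean of at least 5 FPKM and no overlap between groups, without predicted and clone names. By this rule the largest rises in the WT precipitate were in mRNAs, the class of most genes tested. The list is led by an RNA-binding protein, a spindle checkpoint protein and a Golgi protein. Over all tested genes the log2 fold changes in WT ran from -2.20 to 4.10. Rbm42, an RNA-binding protein gene (chromosome 7, 30640995 to 30650228, GRCm38), was at 787, 1044 and 1468 FPKM in the IPs, against 59.4, 62.7 and 63.2 FPKM in the inputs, a ratio of means of 17.8. Its log2 fold change was 4.09 ± 0.13 (SE; limma, adjusted p = 2.6e-08). Every IP stood far above every input, and the third IP held the highest value. Bub1b, a kinase-related protein of the spindle checkpoint (chromosome 2, 118598202 to 118641592), was at 434, 681 and 913 FPKM in the IPs, against 61.8, 76.9 and 77.3 FPKM in the inputs. Its log2 fold change was 3.16 ± 0.11 (SE; adjusted p = 7.7e-09). Golga4, a coiled-coil protein of the trans-Golgi (chromosome 9, 118506196 to 118582519), was at 177, 181 and 248 FPKM in the IPs, against 24.9, 21.2 and 24.3 FPKM in the inputs (log2 fold change 3.04 ± 0.08, adjusted p = 2.2e-10).

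The other 9 of the 12 largest rises were smaller. Sec24c, a cargo-binding subunit of the COPII coat, was at 171, 174 and 179.9 FPKM in the IPs, against 34.2, 31.8 and 27.3 FPKM in the inputs. Nid2, a nidogen of the basement membrane, was among the most abundant, at 1429, 1771 and 1996 FPKM in the IPs and 376, 413 and 385 FPKM in the inputs. Smarca4, the ATPase subunit BRG1 of the BAF chromatin remodelling complex, was at 242, 289.9 and 377 FPKM in the IPs, against 70.7, 75.7 and 75.8 FPKM in the inputs. In each of these 3 genes the lowest IP was far above the highest input. The log2 fold changes were 2.46 for Sec24c, 2.13 for Nid2 and 1.99 for Smarca4. The remaining 6 were Nckap5l (2.86), Synrg, an adaptor-binding protein of clathrin coats (2.24), the formin gene listed as Diap1 (2.19), Arhgef11, a guanine nucleotide exchange factor (2.11), Itpkc, an inositol trisphosphate kinase (2.00), and Lzts2 (1.98).

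These few genes made up a visible share of the precipitated reads. The 58 genes called and at least 2-fold higher took 3.76%, 4.17% and 4.79% of the reads in the WT IPs, against 1.39%, 1.42% and 1.37% in the WT inputs. Of the 58, 55 are annotated as protein coding and 2 as long noncoding RNA, and 11 were at least 4-fold higher. Of all 12109 genes, 11772 are annotated as protein coding and 215 as long noncoding RNA. Whether the shares among the 58 differ from those of all genes was not tested.

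**Figure D1:**
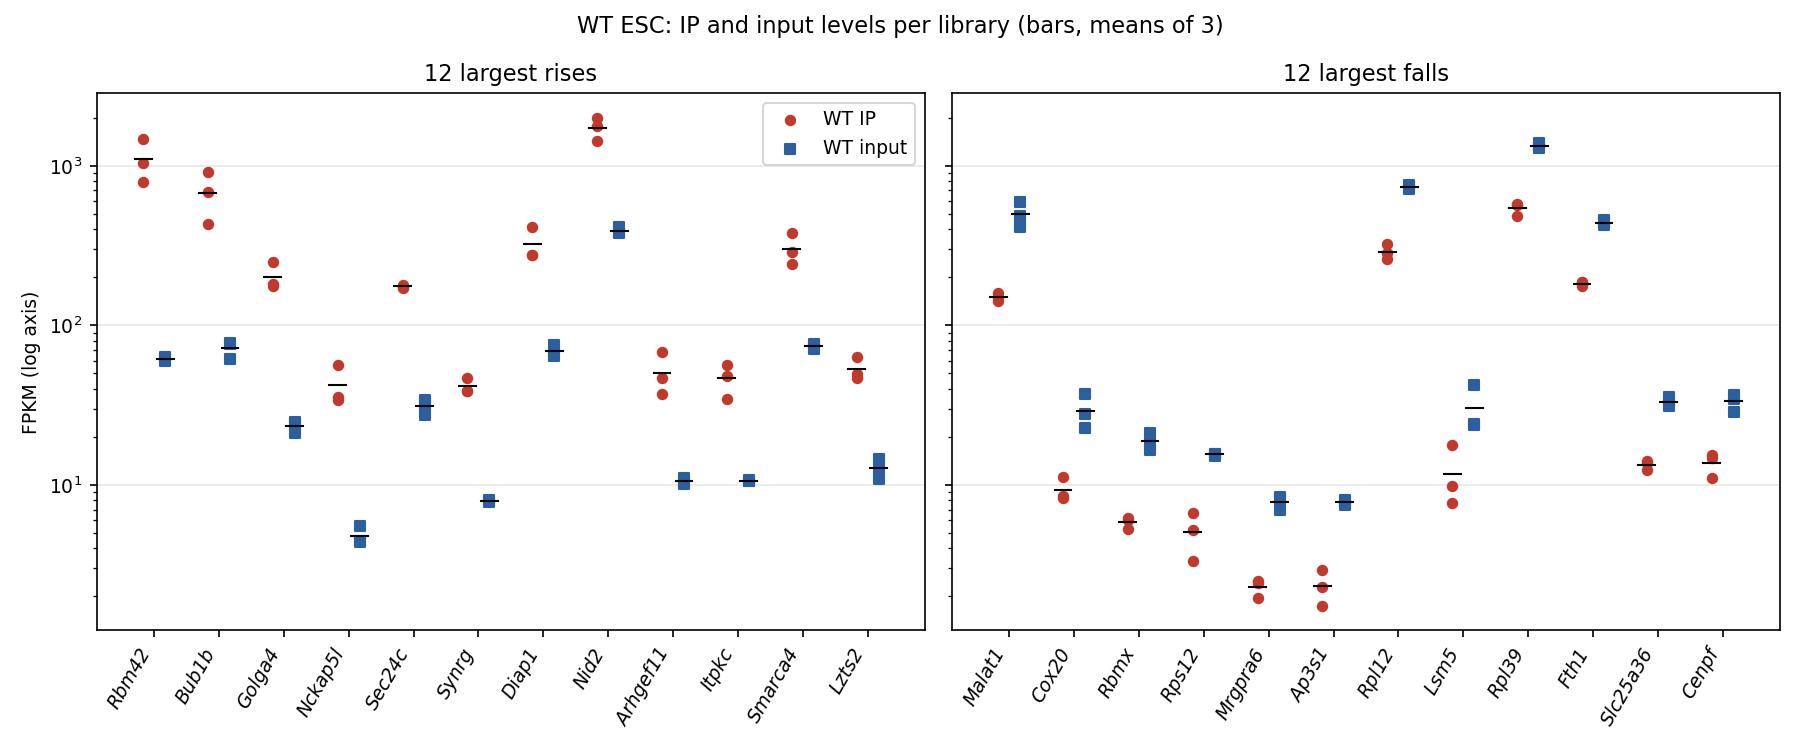
FPKM on a log axis in each of the 3 WT IPs (red circles) and 3 WT inputs (blue squares) for the 12 largest rises and the 12 largest falls among named genes with a mean of at least 5 FPKM; black bars are means. The groups do not overlap in any of the 24 genes, and Rbm42 is the farthest apart, at 787 to 1468 FPKM in the IPs and 59.4 to 63.2 FPKM in the inputs.

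By the same rule for ranking, the largest falls included a nuclear noncoding RNA, several ribosomal protein mRNAs and a few other mRNAs. Malat1, a nuclear speckle RNA (chromosome 19, 5795690 to 5802672), was at 159, 143 and 151 FPKM in the IPs, against 595, 414 and 483 FPKM in the inputs. Its log2 fold change was -1.70 ± 0.07 (SE; limma, adjusted p = 3.5e-09). Rbmx, an hnRNP protein gene on chromosome X, was at 6.04, 6.17 and 5.32 FPKM in the IPs, against 21.2, 18.4 and 16.5 FPKM in the inputs (log2 fold change -1.52). Fth1, the ferritin heavy chain, was at 176, 187 and 186 FPKM in the IPs, against 455, 438 and 426 FPKM in the inputs (-1.26). The IPs of all 3 genes lay under every input.

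Other falls of similar size had their own features. Ybx1, which encodes an RNA-binding cold shock domain protein, was at 114, 105 and 106 FPKM in the IPs and 279, 239 and 249 FPKM in the inputs (log2 fold change -1.23). Cenpf, a kinetochore protein gene, was at 15.3, 14.6 and 11.0 FPKM in the IPs and 36.8, 34.7 and 28.7 FPKM in the inputs (-1.24). Cox20, an assembly factor of cytochrome c oxidase, had a log2 fold change of -1.53, with 11.1, 8.49 and 8.30 FPKM in the IPs and 36.9, 22.7 and 27.9 FPKM in the inputs. Its annotated span on chromosome 1 (178318095 to 178322693) overlaps that of Hnrnpu (178321108 to 178338891), so reads of the pair can be hard to assign. Lsm5, a subunit of the Lsm ring that binds U6 RNA and decaying mRNA, was at 17.7, 7.70 and 9.77 FPKM in the IPs, against 42.3, 23.8 and 24.2 FPKM in the inputs, and its first pair was the highest in both groups. The remaining falls of the 12 were Rps12 (-1.48), Mrgpra6, annotated as a transcribed pseudogene (-1.43), Ap3s1, a subunit of the AP-3 adaptor (-1.41), Rpl12 (-1.36), Rpl39 (-1.31) and Slc25a36, a mitochondrial nucleotide carrier (-1.26).

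The annotated classes of genes lay apart. Among 215 annotated long noncoding RNA genes, 13 were higher in WT IP and 118 were lower, with a median log2 fold change of -0.45. Among 11772 protein-coding genes, 3639 were higher and 2793 were lower, with a median of 0.03. The 79 transcribed pseudogenes lay between these classes, with 10 higher, 31 lower and a median of -0.26. Of the long noncoding RNA genes 22 passed the minimum through the 3 inputs alone and none through the 3 IPs alone, so part of the imbalance was fixed by the choice of genes. Their median level in the inputs was 3.66 FPKM, against 13.2 FPKM for protein-coding genes. On counted reads with edgeR, 3 long noncoding RNA genes were higher, 104 were lower and the median was -0.57. In NF90+NF110 KO cells 16 of the 215 were higher and 75 lower by limma (median -0.22), against 24.4% and 22.1% of all genes. The difference between the genotypes was called higher in WT for 1 and lower for 20, against 5.29% and 1.39% of all genes. Of the 67 genes called and at least 2-fold lower, 20 were long noncoding RNA genes and 42 were protein coding.

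**Figure D2:**
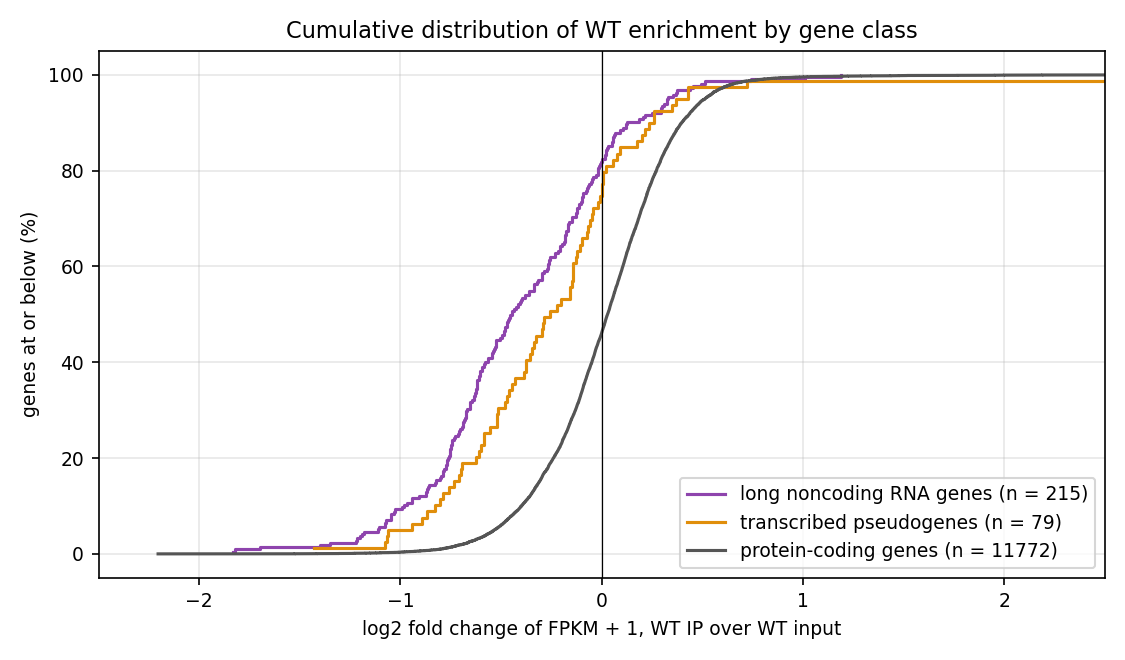
Cumulative share of genes (%) at or below each log2 fold change of WT IP over WT input, by annotated class; the axis is cut at ±2.5, which leaves the largest rises outside. The curve of the 215 long noncoding RNA genes crosses its midpoint at -0.45, that of the 79 transcribed pseudogenes at -0.26 and that of the 11772 protein-coding genes at 0.03.

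All 7 measured members of a list of nuclear long noncoding RNAs were lower in the precipitate, with a median log2 fold change of -0.77, and 6 were lower with edgeR. Xist passed the minimum through the inputs alone, so its direction was fixed by the filter. Neat1, the scaffold RNA of paraspeckles, was at 21.7, 18.2 and 21.9 FPKM in the IPs, against 42.7, 38.4 and 37.5 FPKM in the inputs (log2 fold change -0.91 ± 0.08, SE; limma, adjusted p = 2.7e-06). Meg3, an imprinted noncoding RNA, was at 47.8, 27.7 and 46.4 FPKM in the IPs, against 95.3, 45.7 and 71.9 FPKM in the inputs. Its groups overlapped, because the second pair was low in both, and its log2 fold change was -0.77 (adjusted p = 5.5e-05). Xist was near the minimum, at 0.62, 0.53 and 0.54 FPKM in the IPs and 2.05, 1.46 and 1.40 FPKM in the inputs.

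The 8 measured host transcripts of small nucleolar RNAs were also all lower, with a median log2 fold change of -0.75. These spliced transcripts release small nucleolar RNAs from their introns, and their remaining exons are typically short-lived. Snhg6 was at 71.7, 103 and 90.7 FPKM in the IPs, against 161, 202 and 199 FPKM in the inputs (log2 fold change -1.08). Dancr was at 10.5, 7.89 and 9.75 FPKM in the IPs, against 19.7, 20.5 and 22.1 FPKM in the inputs (-1.07). Neither gene had an IP within the range of its inputs.

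RefSeq microRNA hairpins lay inside the genomic span of 472 measured genes, whatever the strand, and 8 of the 532 hairpins lay in more than 1 of these genes. Of the 458 that are protein coding, 200 (43.7%) were higher in WT IP, 89 (19.4%) were lower and the median log2 fold change was 0.12, against 30.9% higher and 23.7% lower of all protein-coding genes. Of the 14 that are long noncoding RNAs, 2 were higher, 10 (71.4%) were lower and the median was -0.72, against 54.9% lower of all long noncoding RNA genes. Whether these shares differ was not tested. The 2 that rose were Mirc35hg, which spans the hairpins of Mir182, Mir96 and Mir183, and the predicted gene Gm38431. Mirc35hg was at 10.6, 8.39 and 8.32 FPKM in the IPs, against 7.53, 5.20 and 5.88 FPKM in the inputs (log2 fold change 0.50, adjusted p = 0.0021 by limma). In NF90+NF110 KO cells, which lack both proteins, its log2 fold change was 0.60. Gm38431 had 1.19 in WT and 0.39 in NF90+NF110 KO cells. These values count reads of the whole host gene, and hairpins or mature microRNAs were not measured separately.

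The host of the embryonic stem cell microRNA cluster on chromosome 7 was among those lower in the precipitate. D7Ertd143e (3218784 to 3221015, GRCm38) spans 6 RefSeq hairpins, 5 of them on the plus strand. Mature 3p arms of this cluster are printed from RefSeq (GRCm38.p6), 5′ to 3′, with the seed (bases 2 to 8) in capitals, followed by the Mir294 hairpin with its 3p arm in capitals, since a paired stem of this kind is the structure that NF90 is known to bind.
mmu-miR-291b-3p: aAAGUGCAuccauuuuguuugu
mmu-miR-294-3p: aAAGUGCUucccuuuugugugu
mmu-miR-295-3p: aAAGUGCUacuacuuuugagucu
mmu-miR-293-3p: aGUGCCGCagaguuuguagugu
Mir294 hairpin: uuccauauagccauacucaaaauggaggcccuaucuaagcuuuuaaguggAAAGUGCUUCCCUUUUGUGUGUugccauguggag
The seeds of miR-294-3p and miR-295-3p are identical, that of miR-291b-3p differs from them in its last base, and miR-293-3p has another seed. The hairpin of Mir294 lies at chr7:3220641-3220724 on the plus strand. D7Ertd143e was at 77.5, 47.8 and 64.2 FPKM in the WT IPs, against 125, 93.8 and 97.3 FPKM in the WT inputs. No IP reached the lowest input, and the log2 fold change was -0.75 ± 0.10 (SE; limma, adjusted p = 5.4e-05). The hosts Mirg and Mir17hg, which span hairpins of the Dlk1-Dio3 region and Mir92-1, were also lower. Mirg was at 6.39, 3.20 and 5.24 FPKM in the IPs and 10.9, 6.98 and 10.4 FPKM in the inputs (-0.83), and Mir17hg was at 2.30, 1.61 and 1.30 FPKM in the IPs and 3.46, 3.77 and 3.62 FPKM in the inputs (-0.77).

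**Figure D3:**
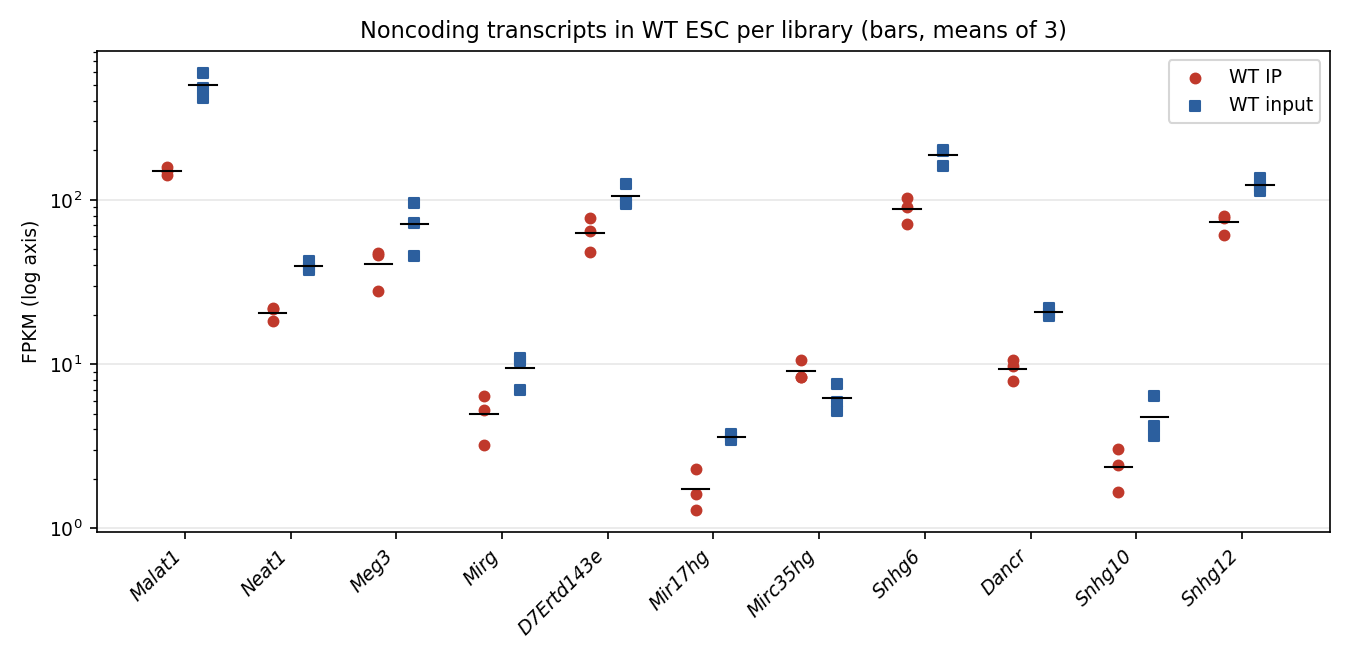
FPKM on a log axis in each of the 3 WT IPs (red circles) and 3 WT inputs (blue squares) for nuclear noncoding RNAs, microRNA hosts and small nucleolar RNA hosts; black bars are means. The IP means lie under the input means in all of them except Mirc35hg, at 9.11 FPKM in the IPs and 6.20 FPKM in the inputs.

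Many cytosolic ribosomal protein mRNAs were lower in the precipitate. Of 84 measured cytosolic ribosomal protein genes 11 were higher and 53 (63.1%) were lower, with a median log2 fold change of -0.27. Rpl12 was at 260.1, 322 and 283 FPKM in the IPs, against 715, 752 and 754 FPKM in the inputs. Rpl39 was at 573, 564 and 482 FPKM in the IPs, against 1290.3, 1323 and 1388 FPKM in the inputs. Both genes had IPs well under the lowest input. Ribosomal protein genes have many processed pseudogenes, so reads of single members can be divided among copies. Of 77 mitochondrial ribosomal protein genes 25 (32.5%) were higher and 16 (20.8%) were lower, with a median of 0.05. These shares were near the 30.3% higher and 24.4% lower of all genes. Of 79 nuclear-encoded respiratory chain subunit genes 16 (20.3%) were higher and 26 (32.9%) were lower, with a median of -0.09. Under quantile scaling 11 mitochondrial ribosomal protein genes were higher and 29 lower, with a median of -0.04. For respiratory chain genes it gave 7 higher and 45 lower, with a median of -0.21. In NF90+NF110 KO cells 5 cytosolic ribosomal protein genes were higher and 57 lower, with a median of -0.36. There 2 mitochondrial ribosomal protein genes were higher and 39 lower (-0.19), and 5 respiratory chain genes were higher and 60 lower (-0.32). Of all genes 24.4% were higher and 22.1% lower in those cells.

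Most mRNAs of pluripotency transcription factors were higher in the precipitate. Of 23 measured, 19 (82.6%) were higher and none was lower, with a median log2 fold change of 0.37 (0.24 under quantile scaling). Of all genes 30.3% were higher and 24.4% lower, and of the top 20% by mean FPKM 49.3% and 19.7%. Klf5, a Krüppel-like factor of naive stem cells, was at 323, 323 and 361 FPKM in the IPs, against 124, 117 and 117 FPKM in the inputs (log2 fold change 1.48 ± 0.08, SE; limma, adjusted p = 9.8e-08). Sox2 was at 234, 288 and 301 FPKM in the IPs, against 149, 188 and 209 FPKM in the inputs (0.60). The IPs of both genes lay above every input. Pou5f1, which encodes Oct4, was at 764, 886 and 781 FPKM in the IPs and 687, 759 and 728 FPKM in the inputs (0.16, adjusted p = 0.012). Nanog, at 463, 519 and 459 FPKM in the IPs and 433, 485 and 439 FPKM in the inputs, overlapped between groups and was not called (0.09, adjusted p = 0.067). Foxd3 (0.84), Mycn (0.73) and Tcf7l1 (0.73) were the next largest. Of 26 genes in the LIF, FGF, Nodal, BMP and Wnt pathways 14 were higher and 2 were lower, with a median of 0.25. In NF90+NF110 KO cells 18 of the 23 pluripotency factor genes were higher in IP than in input and 1 lower (median 0.26). Of the 26 pathway genes 12 were higher there and 1 lower (median 0.18). The difference to WT was called for 1 of the 23 and 0 of the 26.

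Genes of chromatin and RNA regulators were also higher more often than lower. Over all genes 30.3% were higher and 24.4% lower, and in the top 20% of genes by mean FPKM 49.3% and 19.7%. Of 41 chromatin remodellers and histone-modifying enzymes 29 (70.7%) were higher and 3 were lower, with a median log2 fold change of 0.33. Besides Smarca4 they included the helicase Chd8 (1.32), the remodeller Ep400 (1.04) and the acetyltransferase Ep300 (0.83). Of 52 DEAD and DEAH box helicases 28 were higher and 4 were lower (median 0.21), led by Ddx23, a splicing helicase, at 115, 122 and 136 FPKM in the IPs and 50.1, 56.6 and 54.5 FPKM in the inputs. Of 69 hnRNP, SR and small nuclear ribonucleoprotein genes 40 were higher and 14 were lower (median 0.21), with Sf3a1 (1.77) and Sf3b1 (0.96) of the U2 particle at one end and Snrpg (-0.74) at the other. Of 53 translation initiation factor genes 26 (49.1%) were higher and 10 (18.9%) were lower (median 0.15), near the shares of the top 20% by mean FPKM. The scaffold Eif4g1 was at 383, 414 and 457 FPKM in the IPs and 174, 178 and 188 FPKM in the inputs, while the cap-binding Eif4e fell by 0.61 on the log2 scale. The helicase list had 53.8% higher and 7.69% lower, and the splicing factor list 58.0% and 20.3%. Whether these lists differ from other genes of like level was not tested. Under quantile scaling the splicing factor list had 31 higher and 18 lower (median 0.09). The initiation factor list then had 17 higher and 15 lower (median 0.04). In NF90+NF110 KO cells the chromatin list had 34 higher and 0 lower (median 0.35), and the helicase list 24 and 2 (0.13). The splicing factor list had 22 and 13 there (0.06), and the initiation factor list 19 and 11 (0.02). In those cells 24.4% of all genes were higher and 22.1% lower.

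Zinc finger genes were lower more often than higher. Of 362 C2H2 zinc finger genes 70 (19.3%) were higher and 143 (39.5%) were lower, against 30.3% and 24.4% of all genes. Their median log2 fold change was -0.13, and under quantile scaling 76 were higher and 121 lower (median -0.07). Zfp930 (-1.02), Zfp329 (-1.01) and Zfp871 (-0.98) had the largest falls, and Zscan10, a stem cell factor, rose to 58.9, 79.6 and 81.8 FPKM in the IPs, against 34.0, 35.8 and 43.7 FPKM in the inputs. Of these genes 14 passed the minimum through a single group. In NF90+NF110 KO cells 82 of the 362 were higher and 59 lower (median 0.02), against 24.4% and 22.1% of all genes. Of 187 solute carriers 41 were higher and 60 were lower (median -0.06).

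Of 18 aminoacyl-tRNA synthetase genes 13 were higher and 2 were lower (median 0.25), and of 28 mitosis and spindle genes 16 were higher and 2 lower (0.16). Under quantile scaling these were 10 and 5 (0.12) and 11 and 4 (0.04). Of 61 replication-dependent histone genes 14 (23.0%) were higher and 9 (14.8%) were lower (0.04), against 30.3% and 24.4% of all genes. Of 37 proteasome subunit genes 14 (37.8%) were higher and 5 (13.5%) lower (0.08). Under quantile scaling the histone and proteasome lists turned, to 14 and 16 (-0.02) and 6 and 12 (-0.03). Polycomb genes divided, with 13 higher and 11 lower of 32: Phc1 was at 441, 508 and 419 FPKM in the IPs against 128, 134 and 92.3 FPKM in the inputs, and Phc3 fell by 0.62 on the log2 scale. Large ubiquitin ligases divided likewise, with 7 (30.4%) higher and 10 (43.5%) lower of 23, Wwp2 at 1.83 and Birc6 at -0.67. Of 17 microRNA pathway genes 7 were higher, among them Drosha (0.50), and 5 were lower.

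Proteins of the NF90 family and its partners had mRNAs that were more often higher than lower, with 9 higher and 2 lower of 18 and a median of 0.18 (0.07 under quantile scaling, with 7 higher and 2 lower). These are 50% and 11.1%, against 30.3% and 24.4% of all genes. In NF90+NF110 KO cells 6 of the 18 were higher and 1 lower (median 0.12), against 24.4% and 22.1% of all genes. The difference to WT was called for 2. Adar, the double-stranded RNA adenosine deaminase, was at 26.2, 29.6 and 32.0 FPKM in the IPs, against 16.7, 16.6 and 15.9 FPKM in the inputs (log2 fold change 0.80 ± 0.06, SE; limma, adjusted p = 6.1e-07). Khsrp, a KH-domain protein that binds AU-rich RNA, had a log2 fold change of 0.66, and Xpo5, the exporter of microRNA precursors, one of -0.34. In NF90+NF110 KO cells Adar had 0.40, Khsrp 0.37 and Xpo5 -0.38. Among 6 measured mRNAs that have been described as NF90 ligands elsewhere, Myc (0.46), Dusp1 (0.33), Ccne1 (0.31) and Trp53 (0.26) were higher. The IPs and inputs overlapped for each of these genes, although the IP was higher within every pair. Myc lay near the minimum in both groups. In NF90+NF110 KO cells the log2 fold changes were 0.41 for Myc, 0.21 for Dusp1, 0.29 for Ccne1 and -0.07 for Trp53, and the difference was called for Trp53 (adjusted p = 0.015 by limma) and not for Myc (0.81), Dusp1 (0.37) or Ccne1 (0.92). Vegfa was lower, at 47.0, 37.5 and 44.3 FPKM in the IPs and 60.1, 43.9 and 45.8 FPKM in the inputs, with overlapping groups (-0.21, adjusted p = 0.026).

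**Figure D4:**
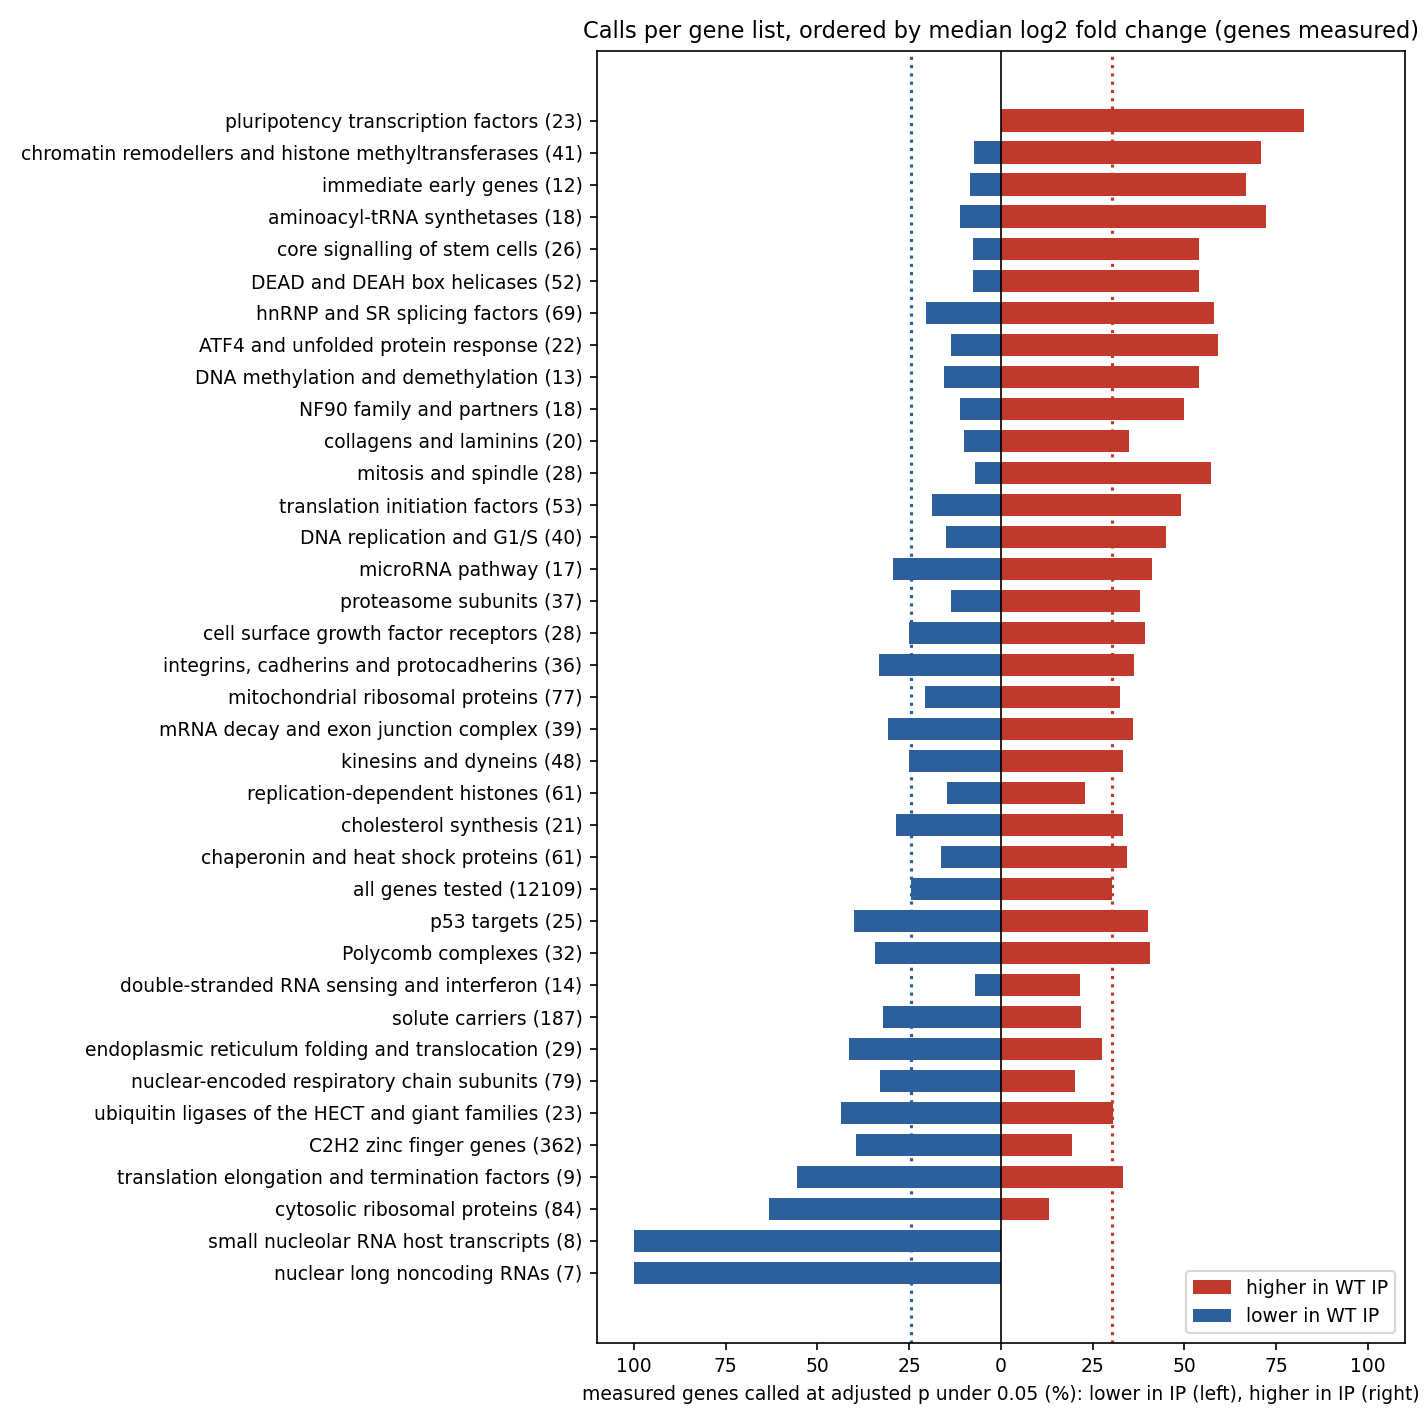
Percent of the measured genes of each list that were higher (red, right) or lower (blue, left) in WT IP than in WT input at an adjusted p under 0.05, ordered by the list's median log2 fold change; numbers in brackets are genes measured and dotted lines mark all 12109 genes (30.3% higher, 24.4% lower). Pluripotency transcription factors lie at the top with 82.6% higher, and the 7 nuclear long noncoding RNAs and 8 small nucleolar RNA hosts at the bottom are all lower.

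Direction was also set beside level and relative length, which is counted reads per FPKM. Across genes, which are not replicates, the log2 fold change in WT had a Spearman's correlation of 0.24 with log2 mean FPKM and 0.06 with log2 relative length. In the bottom 20% of genes by mean FPKM 10.7% of genes were higher and 24.7% lower. In the top 20% 49.3% were higher and 19.7% lower. The filter fixed the direction of low genes that reached the minimum in a single group. Of 88 such genes through the inputs 85 were called lower, and of 10 through the IPs 7 were called higher. Their part in the shares of the bottom 20% was not tested. Genes called higher had a median of 24.9 FPKM and genes called lower one of 10.9 FPKM. Their median relative lengths were 1.09 and 1.08, against 0.90 for genes not called.

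Precipitates from cells lacking both proteins held most of the same strongly enriched RNAs. Of the 58 genes called and at least 2-fold higher in WT, 57 were also called higher in NF90+NF110 KO IP against its own input, where 24.4% of all genes were called higher, and 51 of these were again at least 2-fold. Rbm42 was at 1144, 953 and 1013 FPKM in NF90+NF110 KO IPs and at 74.0, 59.9 and 77.5 FPKM in the matching inputs, with a log2 fold change of 4.09 in WT and 3.87 in NF90+NF110 KO cells. Bub1b had 3.16 in WT and 2.98 in NF90+NF110 KO cells, and Golga4 had 3.04 and 3.05. The difference was called for 2 of the 58, against 5.29% of all genes called higher and 1.39% called lower in WT. For Rbm42 it was 0.22 ± 0.19 (SE; limma, adjusted p = 0.52). Over all 12109 genes the fold changes of the 2 genotypes, which share no library, had a Pearson's r of 0.81 and a Spearman's correlation of 0.77, as a description over genes that share libraries.

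Of the 67 genes called and at least 2-fold lower in WT, 63 were also called lower in NF90+NF110 KO cells, where 22.1% of all genes were called lower, and 21 were again at least 2-fold. Of the 67, 10 passed the minimum through the WT inputs alone, so the filter fixed their fall in WT, against 0 of the 58 rises through the WT IPs alone. The difference was called for 17 of the 67, against 1.39% of all genes lower in WT, and since the 67 were chosen for their fall in WT its direction is not a result. Malat1 had a log2 fold change of -1.70 in WT and -1.18 in NF90+NF110 KO cells, a difference of -0.52 (adjusted p = 0.015). Neat1 and D7Ertd143e fell by less than 2-fold in WT and so are not among the 67. Neat1 had -0.91 in WT and -0.27 in NF90+NF110 KO cells, and D7Ertd143e had -0.75 and -0.14. Their differences were -0.64 (adjusted p = 0.015 by limma) and -0.61 (adjusted p = 0.027). The inputs of these 3 RNAs lay lower in NF90+NF110 KO than in WT cells, with D7Ertd143e at 78.0, 89.1 and 75.2 FPKM against 125, 93.8 and 97.3 FPKM, and the IP levels (85.8, 67.4 and 67.7 FPKM in NF90+NF110 KO, 77.5, 47.8 and 64.2 FPKM in WT) overlapped. Over the 7 nuclear long noncoding RNAs the median was -0.77 in WT and -0.43 in NF90+NF110 KO cells, and over the 8 small nucleolar RNA hosts -0.75 and -0.39.

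**Figure D5:**
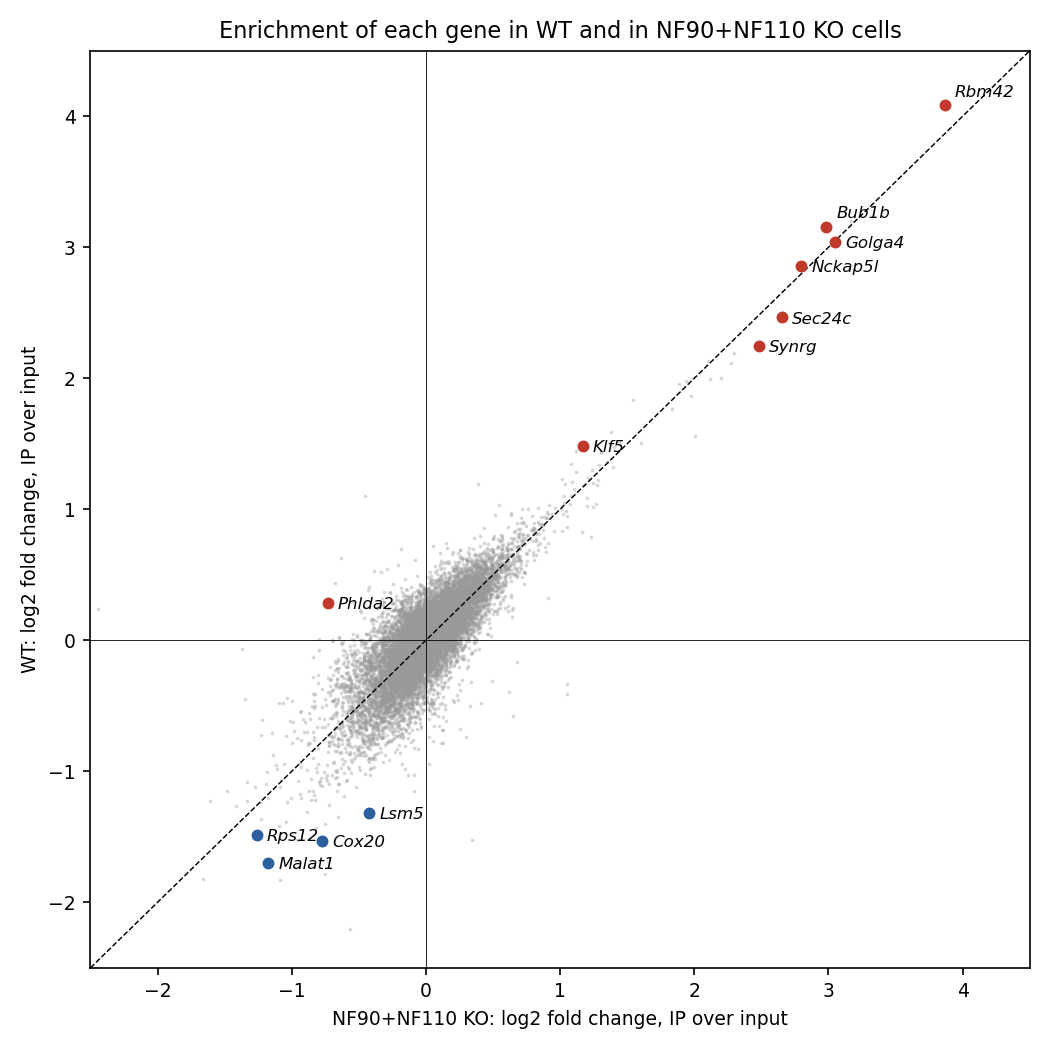
Log2 fold change of IP over input for each of 12109 genes (grey points) in WT cells (vertical axis) and in NF90+NF110 KO cells (horizontal axis); the dashed line marks equal values and coloured points are genes named in the text. Rbm42, Bub1b and Golga4 lie near the dashed line, at 4.09, 3.16 and 3.04 in WT and 3.87, 2.98 and 3.05 in NF90+NF110 KO cells, and Phlda2 lies above it, at 0.28 and -0.73.

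The test of enrichment in WT minus that in NF90+NF110 KO cells called 641 genes higher in WT (5.29%) and 168 lower (1.39%), a split that became 82 and 69 under quantile scaling. Phlda2, an imprinted growth regulator, was at 12.9, 21.7 and 7.34 FPKM in WT IPs and 11.2, 16.3 and 5.95 FPKM in WT inputs, and at 3.56, 1.81 and 3.59 FPKM in NF90+NF110 KO IPs and 5.55, 4.13 and 7.03 FPKM in their inputs. It rose within each WT pair and fell within each NF90+NF110 KO pair, a difference of 1.02 ± 0.15 (SE; limma, adjusted p = 0.010). Among the lists, 35 of 61 replication-dependent histone genes and 36 of 79 respiratory chain subunit genes were higher in WT than in NF90+NF110 KO in this test, with medians of 0.04 and -0.09 in WT and -0.31 and -0.32 in NF90+NF110 KO cells. The difference had a Spearman's correlation of -0.37 with log2 relative length across genes, and 352 of the 641 genes were among the 2406 genes of shortest relative length. The count depended on single experiments: without NF90+NF110 KO replicate 1, 13 genes were higher and 0 lower (2242 at an unadjusted p under 0.05), without NF90+NF110 KO replicate 3, 47 and 4, without WT replicate 1, 60 and 7, without WT replicate 2, 14 and 2, and without WT replicate 3, 322 and 47.

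Against NF110 KO cells, which keep NF90 by their label, enrichment was higher in WT for 869 genes (7.18%) and lower for 894 (7.38%). Rbm42, chosen for its value in WT, was at 4.09 in WT and 3.30 in NF110 KO cells (difference 0.79, adjusted p = 0.028). These counts were 0 and 0 without WT replicate 3, without NF110 KO replicate 2 or without NF110 KO replicate 3, where 2938, 3063 and 2946 genes had an unadjusted p under 0.05 in limma. They were 228 and 338 without WT replicate 2 and 1311 and 1205 without NF110 KO replicate 1. Both difference tests include the same WT libraries. With the term for the pair left out, limma called 1 gene higher and 0 lower against NF90+NF110 KO (959 at an unadjusted p under 0.05) and 0 and 0 against NF110 KO (1535).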

How the data were processed

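RNA was measured in 18 RIP-seq libraries of mouse embryonic stem cells. Per the labels' protocols, libraries were made with a stranded kit after ribosomal RNA depletion. Per the submitters' processing notes, reads were processed against mm10 (the same assembly as GRCm38) with TopHat2 2.0.10, Cufflinks 2.2.1, Cuffnorm, HTSeq 0.6.1 and DESeq2, with no roles given. The authors deposited a table of FPKM values and a table of normalized counts (a signal divided by size factors) with their log2 fold changes, p-values and adjusted p-values. The strand setting of the counting was not stated.

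The test was limma 3.58.1 (R 4.3.3) on log2(FPKM + 1) over all 18 libraries, with variance trend and robust moderation, a term for each of 9 experiments and an IP effect per genotype (6 residual degrees of freedom), two-sided, with Benjamini-Hochberg adjustment over 12109 genes. Fold changes on this scale understate the change of low genes. Pairing comes from the design text: deviations of same-numbered WT IPs and inputs correlated at 0.76, 0.58 and 0.70. Replicates differed by more than counting noise, with a chi-square per gene of 9.43 to 33.2. Dividing the deposited normalized counts by the value of 1 read gave whole reads (within 0.1) for 100% of values, and these were used in edgeR 4.0.16 and DESeq2 1.42.0 as alternatives. On these reads edgeR called 3288 genes higher and 3331 lower in WT IP. No read was counted in the 6 WT libraries for 64 members, and 25 of these were still called by limma on FPKM. Scripts were tested on simulated data. RefSeq names matched 12072 of the 12109 genes. No interval is given for FPKM.

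Members and gene lists were chosen with earlier results of these data known. Genes named singly were Ilf2, the 12 largest rises and falls among called genes without overlap and with a mean of at least 5 FPKM (predicted and clone names skipped), the 6 largest at 50 FPKM or more, the 6 and 4 largest differences each way to NF90+NF110 KO and NF110 KO, and up to 4 called members of each list. Pou5f1, Nanog, Sox2, D7Ertd143e, Gm38431, Xist, Rn45s and Vegfa were chosen after their values were seen. Transcript, UTR and GC features were not used here. A result that the rule for named genes includes is not reported here.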

Additional observations from a re-analysis of the deposited data

Results flagged for a closer look

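The IP over input fold change in WT was compared with that in the knockouts for 84 genes described singly. Some of them were chosen for this difference, and others for a large rise or fall in WT. For the latter, the choice favours a difference in the same direction, so that direction is not a result. At an adjusted p under 0.05 by limma, WT differed from NF90+NF110 KO cells for 27 and from NF110 KO cells for 34. Over all 12109 genes, 5.29% were called higher and 1.39% lower in WT against NF90+NF110 KO. Against NF110 KO these shares were 7.18% and 7.38%. Values are log2 differences, WT minus knockout, and all rest on the same WT libraries and on the counts that change when single experiments are left out.

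Against NF90+NF110 KO, enrichment was higher in WT for Phlda2 (1.02), Rangrf (0.858), Pin4 (0.826), Cks2 (0.814), Hist3h2ba (0.781), Cystm1 (0.727), Rn45s (0.594), Adar (0.392), Trp53 (0.326), Khsrp (0.289) and Nanog (0.228). It was lower in WT for Zfp936 (-0.895), Lsm5 (-0.893), Cox20 (-0.759), Rnf139 (-0.711), Cenpp (-0.681), Peg3os (-0.654, but 0.42 with edgeR), Neat1 (-0.639), Mrgpra6 (-0.615), D7Ertd143e (-0.609), Rbmx (-0.563), Slc25a36 (-0.536), Malat1 (-0.523), Dancr (-0.481), Rpl39 (-0.421), Zfp871 (-0.404) and Snhg6 (-0.281).

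Against NF110 KO, enrichment was higher in WT for Rbm42 (0.791), Rangrf (0.760), Adat3 (0.751), Hist3h2ba (0.686), Lzts2 (0.648), Nckap5l (0.624), Wwp2 (0.597), Mirc35hg (0.543), Phc1 (0.522), Zscan10 (0.458), Nid2 (0.422), Diap1 (0.406), Cystm1 (0.389), Tcf7l1 (0.336), Rn45s (0.324), Ddx23 (0.289), Adar (0.287), Ep400 (0.260), Khsrp (0.258) and Dusp1 (0.236). It was lower in WT for Lsm5 (-1.49), Zfp936 (-1.40), Zfp930 (-1.09), Cox20 (-1.07), Rnf139 (-0.832), Cenpp (-0.775), Rpl39 (-0.758), Slc25a36 (-0.552), Peg3os (-0.537), Ap3s1 (-0.491), Eif4e (-0.490), Mrgpra6 (-0.419), Zfp871 (-0.399) and Snhg6 (-0.329).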

How the results depend on the processing

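For WT IP against input, the counts higher and lower stayed within 1.5 times of 3669 and 2954 under another pseudocount, no or a stricter filter, quantile scaling, median centring, WT libraries alone, edgeR and DESeq2, and ranged over 3033 to 3172 and 2316 to 2504 with a pair left out. They were 1852 and 1646 with no replicate block, and all of these genes carried the same call as with the pairing. At least 2-fold were 58 and 67. Against NF90+NF110 KO, the counts 641 and 168 became 256 and 46 with no filter on low values, 82 and 69 with quantile scaling, 1 and 0 with no replicate block and 3 and 1 at 2-fold, the lower count became 501 with edgeR and 256 with DESeq2, and leaving out a pair gave 13 to 878 and 0 to 325. Against NF110 KO, 869 and 894 became 216 and 264 with no filter, 0 and 0 with no replicate block and 1 and 18 at 2-fold, the lower count became 1368 with edgeR, and leaving out a pair gave 0 to 1311 and 0 to 1205. The cause was not tested. Of 2454 values of single genes under the alternatives, 2275 kept direction and side of the threshold, 172 lost the call, 3 gained it and 4 reversed. These were Peg3os in WT (0.0042) and against NF90+NF110 KO (0.42) with edgeR, and Pcdhgb8 in WT with edgeR (0.017) and DESeq2 (0.00030).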
